A study of Mus musculus with 8 samples.

Results

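The immediate early genes followed here are 10 of the 19938 genes measured on 8 arrays of mouse bone marrow stromal cells: Fos, Fosb, Jun, Junb, Egr1, Egr2, Ier2, Ier3, Atf3 and Nr4a1. Each gene was represented by the brightest probe set annotated to its symbol alone, and each of the 10 had 1 such probe set. All 10 passed the filter on dim genes, a mean log2 intensity above 7.14, which left 13205 genes in the tests. The cells came from the femurs and tibiae of C57BL/6 mice of 6 to 8 weeks of age, with no genetic change labelled and no cytokine added. The adherent cells were expanded once and then cultured on a calcium phosphate scaffold, Skelite, in osteoinductive medium, which directs stromal cells towards bone formation, or in growth medium. In each medium there was 1 array for each of 4 conditions. Microgravity and the onboard centrifuge, which applied 1g, were the flight conditions, both run in automated hardware inside the KUBIK incubator. Ground incubation units, operated by hand, and laboratory culture dishes of 24 wells were the ground-based conditions. The time between the end of a culture and RNA isolation, and the stimulus history of the cultures, are not given in the sources used here.

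Immediate early genes are switched on within minutes of a stimulus such as serum, a growth factor, stress or mechanical load, without the need for new protein. Serum response factor and its ternary complex partners, acting at CArG boxes, and CREB, acting at cAMP response elements, are their main activators, and many of their mRNAs are short-lived. FOS and JUN family proteins pair to form AP-1, a transcription factor that in the skeleton is known for control of osteoblast and osteoclast differentiation. Mechanical loading of bone cells is a known inducer of Fos and Egr1.

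The promoters of 6 members whose levels changed in a comparison described below are shown first, as the 250 bases before the annotated start in RefSeq, build GRCm38.p6. The Fos window is chr12:85473640-85473889 on the plus strand and the Jun window is chr4:95052223-95052472 on the minus strand. The Junb window is chr8:84978749-84978998 on the minus strand and the Ier3 window is chr17:35821463-35821712 on the plus strand. The Atf3 window is chr1:191183334-191183583 on the minus strand and the Nr4a1 window is chr15:101266596-101266845 on the plus strand. Capitals mark every match, on either strand, to the CArG box, to TGACG (the core of the cAMP response element, read as CGTCA on the other strand), to TGACNTCA, a longer element bound by JUN with ATF proteins, or to TGANTCA, the AP-1 site. TGACG also lies within one form of TGACNTCA.
Fos: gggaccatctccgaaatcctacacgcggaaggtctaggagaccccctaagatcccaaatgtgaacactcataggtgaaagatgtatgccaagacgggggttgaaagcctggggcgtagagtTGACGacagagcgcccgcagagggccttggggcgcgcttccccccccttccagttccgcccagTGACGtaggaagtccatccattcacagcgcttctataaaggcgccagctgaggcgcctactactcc
Jun: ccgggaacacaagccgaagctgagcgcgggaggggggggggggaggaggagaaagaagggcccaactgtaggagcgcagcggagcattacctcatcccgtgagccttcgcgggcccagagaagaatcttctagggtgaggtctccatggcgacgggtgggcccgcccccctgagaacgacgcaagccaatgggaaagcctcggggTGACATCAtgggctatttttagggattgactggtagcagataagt
Junb: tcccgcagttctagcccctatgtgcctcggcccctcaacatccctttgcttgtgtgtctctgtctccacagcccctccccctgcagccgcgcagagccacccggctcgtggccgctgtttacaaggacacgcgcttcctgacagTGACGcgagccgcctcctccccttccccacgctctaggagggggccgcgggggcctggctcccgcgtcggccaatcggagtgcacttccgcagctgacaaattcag
Ier3: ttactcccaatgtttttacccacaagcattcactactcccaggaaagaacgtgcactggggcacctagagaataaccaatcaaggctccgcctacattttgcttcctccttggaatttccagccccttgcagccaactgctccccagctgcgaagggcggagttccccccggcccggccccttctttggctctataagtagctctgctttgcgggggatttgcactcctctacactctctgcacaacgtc
Atf3: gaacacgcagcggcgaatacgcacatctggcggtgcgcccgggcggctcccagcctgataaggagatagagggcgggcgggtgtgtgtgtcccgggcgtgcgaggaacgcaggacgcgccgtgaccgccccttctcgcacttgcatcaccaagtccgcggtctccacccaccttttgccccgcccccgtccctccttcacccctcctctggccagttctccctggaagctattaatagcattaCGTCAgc
Nr4a1: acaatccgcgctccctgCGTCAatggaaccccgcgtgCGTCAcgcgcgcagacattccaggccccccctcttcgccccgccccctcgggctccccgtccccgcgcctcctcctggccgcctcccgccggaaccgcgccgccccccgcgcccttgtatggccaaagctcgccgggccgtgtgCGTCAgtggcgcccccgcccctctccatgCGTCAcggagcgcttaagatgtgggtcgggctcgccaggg

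A window was found for 8 of the 10 members, all but Egr1 and Ier2, whose promoters were therefore not searched. Sites more than 250 bases before the start were not searched for any member. TGACG was present in the windows of Fos, Fosb, Junb, Atf3 and Nr4a1 and in 3 of the 5 windows of Egr2, and a single RefSeq window of this length held it in 17.8% of 32851 cases. In Fos the matches began 129 and 66 bases before the start, and in Fosb and Junb they began 60 and 106 bases before it. Nr4a1 held 4 matches, all on the other strand, at 233, 213, 69 and 40 bases, and Atf3 held 1, on the other strand, at 7 bases. Jun held TGACNTCA at 45 bases, a sequence present in 7.49% of all windows. Among the 8 members with a window, a CArG box was found for Egr2 alone, in 4 of its windows, some of which overlap. All RefSeq windows held it in 1.47% of cases. TGANTCA occurred in none of the members' windows and in 6.75% of all, and the Ier3 window held none of the 4 motifs. These matches describe the letters of the windows and carry no measurement of binding.

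The deposited values are intensities on a linear scale, and array medians lay between 180.9 and 196.4. Titles were followed where labels disagreed: the centrifuge samples carry a gravity label reading microgravity, and the osteoinductive centrifuge sample is once described as in growth medium. The labels do not state separate cultures or animals behind the arrays, and no medium and condition has a repeat array. A p-value here therefore rests on spread between arrays of different media or conditions. That spread can be technical and can also hold differences between the conditions themselves. Of 11 measured stromal markers, 11 passed the filter, as did 6 of 10 macrophage and haematopoietic markers, without Ptprc, Itgam, Adgre1 and Spi1. The summed intensity of the 10 was 1593 to 2308 on the flight arrays, against 1560 to 1788 on the ground-based arrays. The sum of 2308 was that of the osteoinductive microgravity array, where Lyz2 stood at 841, against 172 to 222 on the other arrays. The summed intensity of the stromal markers was 21378 to 26199 on the flight arrays, against 26300 to 28188 on the ground-based arrays. Col1a1, Col1a2 and Itgb1 had the largest intensities in this sum. Of the single markers, 4 of the 11 had a higher mean in flight. In the limma test of flight minus ground-based, 1 passed as higher and 5 as lower, against 12.7% and 25.7% of all tested genes. Their median log2 difference was -0.15, against -0.088 over all tested genes. Markers of other tissues went with flight: all 15 neuronal markers had a higher mean in flight (summed intensity 12173 to 18662, against 3274 to 4338 on the ground-based arrays), 12 of them passing the filter. Mean levels were also higher in flight for 14 of 14 skeletal muscle markers (5665 to 7301, against 2394 to 2813), 13 of 13 lung epithelium markers (2829 to 15854, against 1743 to 1928) and 12 of 12 endothelial markers (2453 to 4052, against 1844 to 1928). The part of these other cell types in the results on the immediate early genes was not tested.

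**Figure D1:**
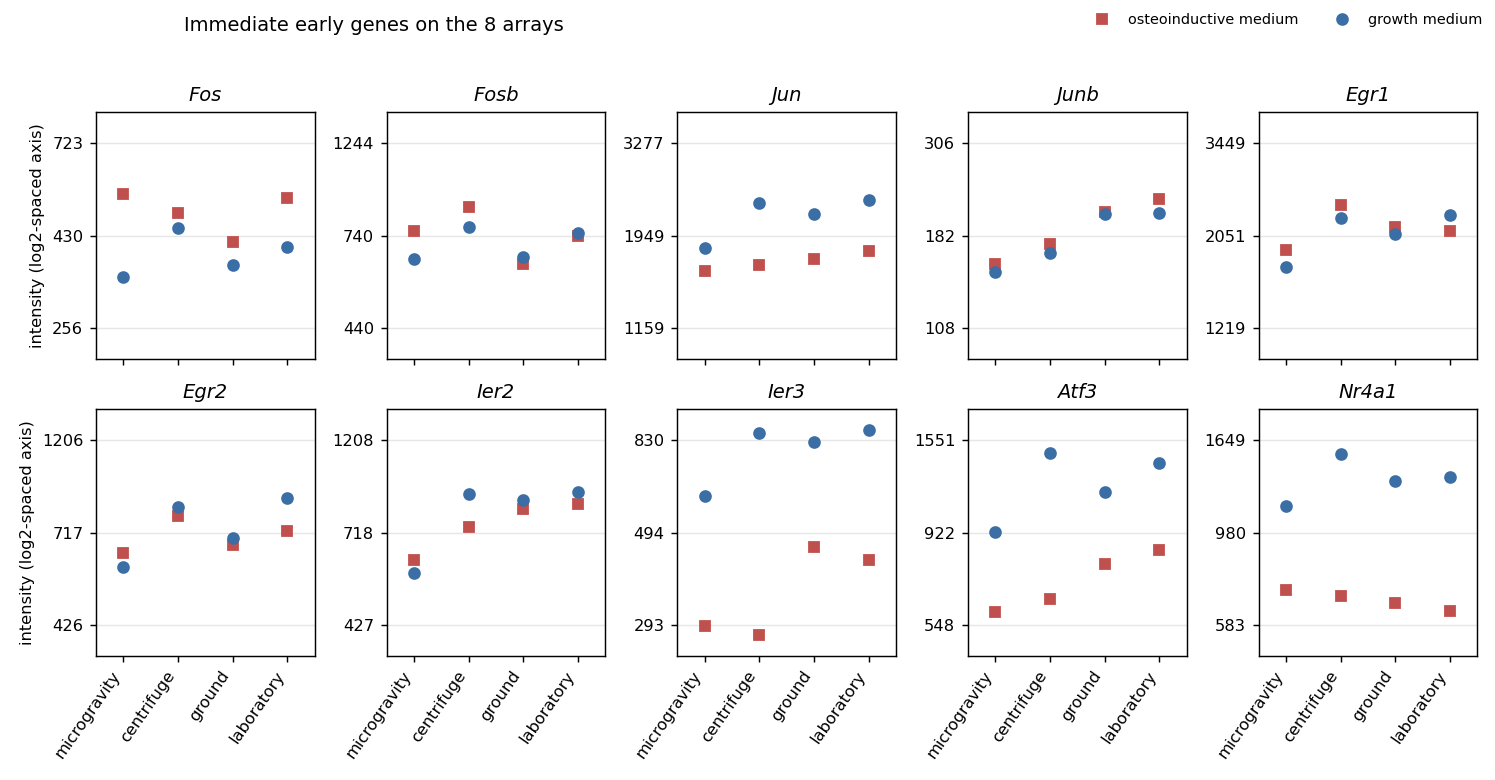
Intensity of each of the 10 immediate early genes (1 panel per gene, y axis spaced in log2 with the same span in every panel) on the 8 arrays, by condition on the x axis, with osteoinductive medium as squares and growth medium as circles. Ier3, Atf3 and Nr4a1 lie lower in osteoinductive medium in all 4 conditions, while Egr1, Egr2 and Ier2 lie close together in both media.

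The comparison of media asks which immediate early genes differed between cells in osteoinductive medium and cells in growth medium. In osteoinductive medium Ier3, Nr4a1, Atf3 and Jun fell and Fos rose relative to growth medium, while Fosb, Junb, Egr1, Egr2 and Ier2 did not pass the test. Thus 5 of 10 passed, 1 higher and 4 lower, against 14.5% of all 13205 tested genes (6.42% higher and 8.13% lower). In bulk RNA such as this, fewer cells of a type and less RNA per cell cannot be told apart. Of 12 tested neuronal markers, 4 were also lower in osteoinductive medium, with a median of -0.29 over the 12. Some of the 12 passed the filter through their flight values and were dim on the ground-based arrays. Of 6 tested macrophage and haematopoietic markers, 2 were lower, with a median of -0.16 over the 6, and the part of either list in the members' differences was not tested. Values below are given in the order microgravity, centrifuge, ground and laboratory.

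Ier3, a stress- and growth factor-induced regulator of cell survival, had intensities of 291, 277, 455 and 423 in osteoinductive medium, against 606, 866, 822 and 879 in growth medium. All 4 osteoinductive arrays lay below all 4 growth arrays, and within osteoinductive medium both flight arrays lay below both ground-based arrays. The level was 2.22-fold lower in osteoinductive medium (log2 difference -1.15, SE 0.12, limma adjusted p = 4.81e-05).

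Nr4a1 encodes the orphan nuclear receptor NUR77, an early response gene that acts without a known natural ligand. Its intensities were 710, 685, 659 and 631 in osteoinductive medium, against 1141, 1524, 1307 and 1337 in growth medium. The 4 osteoinductive values fell in a narrow range well below the lowest growth value. The level was 1.97-fold lower (log2 difference -0.98, SE 0.094, limma adjusted p = 3.62e-05).

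Atf3, a stress-induced member of the ATF/CREB family, had intensities of 591, 634, 770 and 834 in osteoinductive medium, against 927, 1439, 1161 and 1360 in growth medium. The groups did not overlap, and in osteoinductive medium the 4 conditions ran in this order from low to high. The level was 1.72-fold lower in osteoinductive medium (log2 difference -0.78, SE 0.10, limma adjusted p = 3.51e-04).

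Jun, the founding partner of AP-1, had intensities of 1595, 1648, 1704 and 1783 in osteoinductive medium, against 1813, 2346, 2202 and 2381 in growth medium. The groups did not overlap, but the growth microgravity array stood only just above the highest osteoinductive array. The log2 difference was -0.37 (SE 0.086, limma adjusted p = 0.0127). It no longer passed without the centrifuge arrays (-0.32, adjusted p = 0.0502) or without the laboratory arrays (adjusted p = 0.0607).

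Fos, the AP-1 partner of the JUN proteins, went the other way. Its intensities were 543, 487, 416 and 532 in osteoinductive medium, against 341, 450, 365 and 403 in growth medium. Each condition had the higher value in osteoinductive medium, but the groups overlapped, since the growth centrifuge array exceeded the osteoinductive ground array. The log2 difference was 0.34 (SE 0.10, 95% interval 0.13 to 0.56, limma adjusted p = 0.0379). Without the microgravity arrays it was 0.23 with an adjusted p of 0.139, without the laboratory arrays 0.32 with an adjusted p of 0.115, and with no filter on dim genes the adjusted p was 0.0606.

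The other five members showed small differences between media. Fosb, a second FOS family protein, had intensities of 759, 870, 629 and 737 in osteoinductive medium, against 648, 777, 655 and 753 in growth medium. Its log2 difference was 0.075, with a 95% interval of -0.11 to 0.26. The intervals ran from -0.11 to 0.24 for Junb and from -0.14 to 0.23 for Egr1. They ran from -0.26 to 0.12 for Egr2 and from -0.27 to 0.11 for Ier2, so each interval left out a doubling or halving. Over the 4 conditions, Jun, Ier3, Atf3 and Nr4a1 were lower in osteoinductive medium in 4 of 4, a pattern seen in 20.3% of tested genes, and Fos and Junb were higher in 4 of 4, seen in 15.8%. The 4 genes that fell also had no overlap of the media, which held for 3.57% of tested genes in that direction and for 6.16% in the other.

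**Figure D2:**
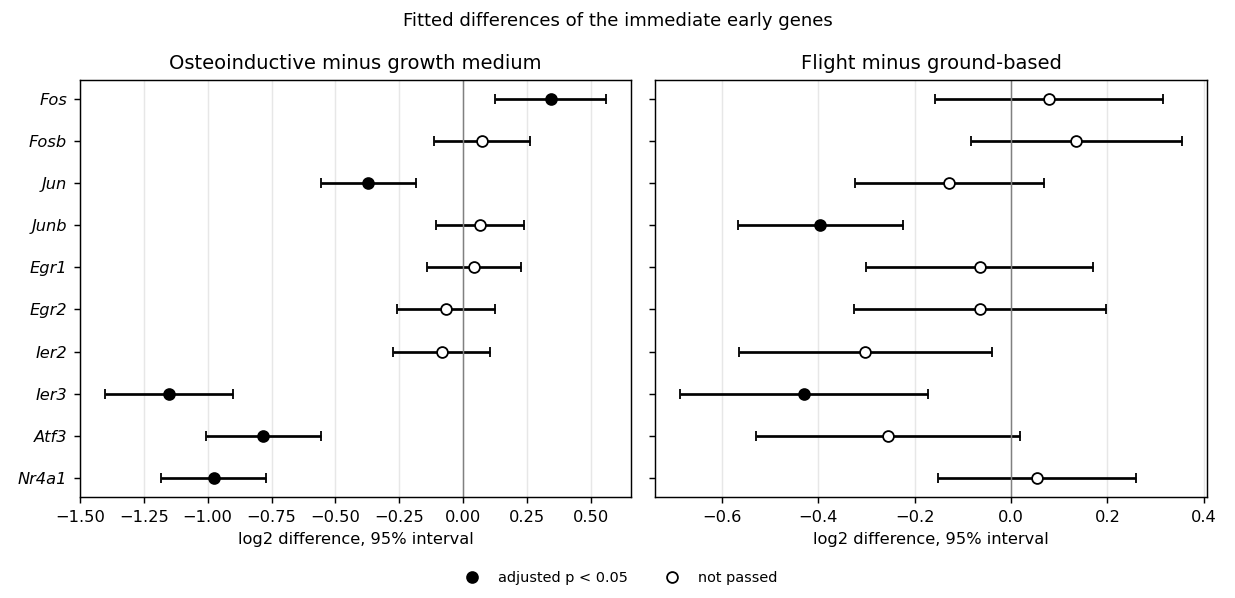
Fitted log2 differences of the 10 immediate early genes with 95% intervals, for osteoinductive minus growth medium and for flight minus ground-based arrays, with filled points for genes with an adjusted p under the threshold. Ier3, Atf3 and Nr4a1 stand at -1.15, -0.78 and -0.98 in the comparison of media, and Junb and Ier3 at -0.40 and -0.43 in the comparison of flight.

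Across flight, meaning microgravity and centrifuge together, Junb and Ier3 fell relative to the ground-based arrays and the other eight members did not pass. That is 2 of 10 called, both lower, against 38.4% of all tested genes (12.7% higher and 25.7% lower). The median log2 difference of the members was -0.096, against -0.088 over all tested genes.

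Junb encodes a JUN protein that restrains JUN activity in AP-1 and also takes part in bone formation. In osteoinductive medium it had intensities of 155 and 174 in microgravity and on the centrifuge, against 208 and 223 in ground units and laboratory dishes. In growth medium it had 148 and 165 in microgravity and on the centrifuge, against 206 and 207 in ground units and laboratory dishes. Every flight array lay below every ground-based array, in both media, which held for 16.2% of tested genes in that direction and for 11.8% in the other. The level was 1.32-fold lower in flight (log2 difference -0.40, SE 0.079, limma adjusted p = 0.00236). Junb is a dim probe set, below the stricter filter at the 60th percentile, and was therefore not tested under it.

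Ier3, whose 8 values are given above, was 1.35-fold lower in flight (log2 difference -0.43, SE 0.12, limma adjusted p = 0.0139). The drop in osteoinductive medium separated flight from ground-based arrays, whereas in growth medium the centrifuge array, at 866, lay between the ground and laboratory arrays. The largest difference that did not pass was that of Ier2, a nuclear early response protein. It had intensities of 616 and 740 in microgravity and on the centrifuge in osteoinductive medium, against 821 and 841 in ground units and laboratory dishes. In growth medium it had 573 and 891 in microgravity and on the centrifuge, against 864 and 900 in ground units and laboratory dishes. The growth centrifuge array was level with the ground-based arrays, and the log2 difference was -0.30 (SE 0.12, limma adjusted p = 0.0656).

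For Fos, Fosb, Egr1, Egr2 and Nr4a1 the 95% intervals of the difference held 0, the farthest bound being 0.35 for Fosb, with log2 differences of 0.079, 0.14, -0.065, -0.064 and 0.054. Jun and Atf3 had differences of -0.13 and -0.26, with adjusted p-values of 0.279 and 0.127 by limma. The array scaling mattered for these. After quantile normalization Fosb (0.27, limma adjusted p = 0.0314) and Nr4a1 (0.21, adjusted p = 0.0441) passed as higher in flight beside the lower Junb and Ier3, and Jun, Egr1 and Egr2 turned to positive differences of 0.035, 0.11 and 0.075. Without the growth centrifuge array alone, Ier2 (-0.43, limma adjusted p = 0.00362) and Atf3 (-0.41, 0.00214) passed as lower. Without both centrifuge arrays, 6 members were lower, adding Jun (-0.23, limma adjusted p = 0.0472), Egr1 (-0.25, 0.0332), Ier2 (-0.53, 6.97e-04) and Atf3 (-0.44, 0.00307) to Junb and Ier3.

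Within osteoinductive medium the 2 flight arrays lay below both ground-based arrays for Jun, Junb, Ier2, Ier3 and Atf3, and above both for Fosb and Nr4a1. The same separation downwards held for 45.5% of all tested genes and upwards for 22.1%. Within growth medium only Junb separated the arrays in this way, downwards, as did 35.1% of all genes (21.7% upwards). The difference between the media was tested as the interaction of flight with medium, and no member passed by limma. No gene of the 13205 (0%) passed there, and 525 had an unadjusted p under 0.05. As a share of the tested genes this is below 0.05, the share such a limit passes when no gene differs. The widest interaction among the members was that of Ier3, at -0.40 (adjusted p = 0.999).

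The comparison of microgravity with the onboard centrifuge varies gravity within the flight hardware. All 10 members had a negative difference, none passed, and no gene of the whole table passed by limma (1507 had an unadjusted p under 0.05, and the smallest adjusted p was 0.187). The background is thus 0% of genes called, and 61.8% of all tested genes had a negative difference. The median of the members was -0.23, against -0.051 over all genes. After quantile normalization the 10 differences were still negative, with a median of -0.17, against -0.02 over all genes.

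The zinc-finger genes of the group had some of the larger differences. Egr1, an early response regulator induced by serum and by mechanical load, had intensities of 1895 in osteoinductive medium and 1722 in growth medium in microgravity, against 2442 in osteoinductive and 2260 in growth medium on the centrifuge. Ground units gave Egr1 values of 2152 in osteoinductive and 2073 in growth medium, and laboratory dishes gave 2100 in osteoinductive and 2302 in growth medium. In both media the microgravity array was the lowest of the 4. Its log2 difference from the centrifuge was -0.38 (SE 0.12, unadjusted p = 0.00783, limma adjusted p = 0.315).

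Egr2, a paralogue of Egr1, had intensities of 640 in osteoinductive medium and 590 in growth medium in microgravity, against 788 in osteoinductive and 826 in growth medium on the centrifuge. Ground units gave Egr2 values of 670 in osteoinductive and 694 in growth medium, and laboratory dishes gave 725 in osteoinductive and 871 in growth medium. Again the microgravity array was the lowest in each medium. The log2 difference was -0.39 (SE 0.12, limma adjusted p = 0.317), that of Ier2 was -0.45 (SE 0.12, adjusted p = 0.272) and that of Atf3 was -0.37 (SE 0.15, adjusted p = 0.39).

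Within each medium there is 1 array on each side, and the difference between media was not tested. In these values 10 of 10 members were lower in microgravity than on the centrifuge in growth medium. Their median log2 difference was -0.41, against -0.11 over all tested genes, whose SD was 0.28. In osteoinductive medium 7 of 10 were lower, with a median of -0.14, against 0.0023 over all genes, whose SD was 0.22. The exceptions in osteoinductive medium were Fos at 0.16, Ier3 at 0.071 and Nr4a1 at 0.050. The 7 members lower in both media compare with 30.4% of tested genes, and no member was higher in both, as 18.2% were. Leaving out the growth microgravity array gave fitted differences of 0.097 for Fos and 0.011 for Nr4a1, and leaving out the growth centrifuge array gave 0.030 for Fos and 0.11 for Ier3.

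**Figure D3:**
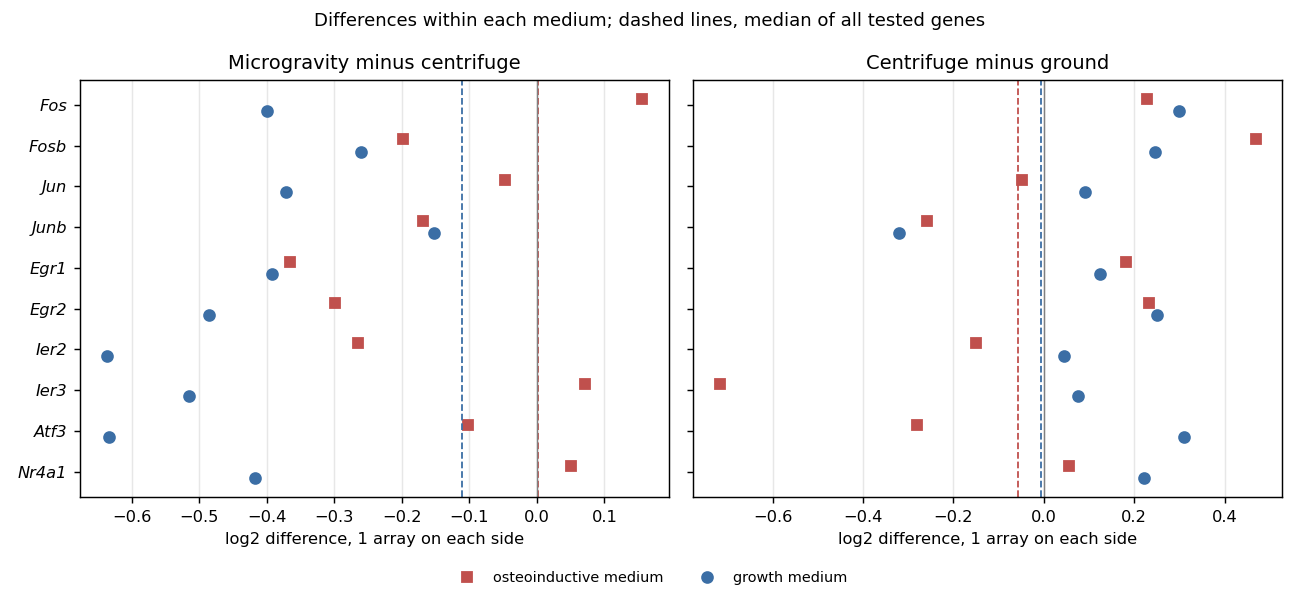
Log2 differences of the 10 immediate early genes within each medium, with 1 array on each side, for microgravity minus centrifuge and for centrifuge minus ground; squares are osteoinductive medium, circles are growth medium and dashed lines mark the median of all tested genes. In growth medium all 10 genes lie below 0 in microgravity minus centrifuge, with a median of -0.41, whereas in osteoinductive medium 7 do, with a median of -0.14.

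Seen over the 4 arrays of growth medium, the microgravity array was the lowest for 10 of 10 members, but it was also the lowest for 52.3% of all tested genes. In osteoinductive medium it was the lowest for 6 of 10 members, namely Jun, Junb, Egr1, Egr2, Ier2 and Atf3, against 31.7% of all genes, and the 6 were lowest in both media, against 22.7%. After quantile normalization these counts were 8, 3 and 3 of 10, against 42.7%, 33.6% and 19.4% of all genes. The growth microgravity array had the lowest summed stromal markers and the highest summed neuronal markers of the 8 arrays. All 9 tested lung epithelium markers had positive differences in microgravity minus centrifuge, with a median of 1.26, and none passed. The 13 measured ones summed to 15854 in microgravity against 2829 on the centrifuge in osteoinductive medium. In growth medium the sums were 4112 and 3312, so the size of the median rests mainly on the osteoinductive microgravity array. Slc34a2, at 1777 there against 91 to 245 on the other arrays, passed the filter with the help of that value. The part of these markers' tissues in the differences of the immediate early genes was not tested.

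Microgravity set against the ground units gave calls for Ier2, Junb and Ier3. This comparison shares the microgravity arrays with the preceding one, and from their intensities given above the differences were -0.50 for Ier2 (SE 0.12, limma adjusted p = 0.0103), -0.45 for Junb (SE 0.11, adjusted p = 0.0114) and -0.54 for Ier3 (SE 0.16, adjusted p = 0.027). That is 3 of 10, all lower, against 28.7% of all tested genes (10.6% higher and 18.1% lower). Atf3 (-0.35, limma adjusted p = 0.0885) and Egr1 (-0.23, adjusted p = 0.177) did not pass, and Fos and Fosb had positive differences of 0.14 and 0.13. None of the 3 calls held without the growth microgravity array or without the osteoinductive ground array. Atf3 passed without either centrifuge array (adjusted p = 0.0208 by limma). The calls of Junb and Ier2 were also lost without the growth ground array, that of Ier3 without the osteoinductive microgravity array and, at -0.45 with an adjusted p of 0.0758, after quantile normalization.

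The centrifuge against the ground units, which compares flight with ground at 1g, gave no call among the 10, against 10.1% of all tested genes (6.34% higher and 3.78% lower). Fosb had the largest positive difference, 0.36 (SE 0.12, limma adjusted p = 0.0888), and Ier3 the largest negative one, -0.32 (SE 0.16, adjusted p = 0.264). Junb was at -0.29, with a limma adjusted p of 0.137. Ier3 passed without the growth centrifuge array (-0.65, limma adjusted p = 0.0158), and Junb after quantile normalization (-0.37, adjusted p = 0.0468). With 1 array on each side, 9 of 10 members were higher on the centrifuge in growth medium, all but Junb. The median of the 10 was 0.17, against -0.0065 over all tested genes, whose SD was 0.37. In osteoinductive medium 5 were higher and 5 lower, from -0.72 for Ier3 to 0.47 for Fosb.

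Ground units against laboratory dishes compares the incubation hardware with ordinary culture. No member passed by limma and no gene of the table did (0%), with 269 genes at an unadjusted p under 0.05 and a smallest adjusted p of 0.441. As a share of the tested genes the 269 are below 0.05, the share such a limit passes when no gene differs. The members' differences ran from -0.25 for Fos to 0.02. In growth medium, with 1 array on each side, 10 of 10 were lower in the ground units. Their median was -0.13, against -0.033 over all tested genes, whose SD was 0.15. In osteoinductive medium 7 of 10 were lower, so that 7 were lower in both media, against 38.9% of all tested genes, and none was higher in both, against 18.4%.

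Genes of the same class outside the 10 were taken from a list of 48 other immediate early genes, all measured, of which 45 passed the filter. Nr4a3, Npas4 and Il6 did not. In osteoinductive medium 11 of the 45 rose and 13 fell, against 6.42% of all tested genes higher and 8.13% lower. The median was -0.056, against -0.017 over all tested genes. Ccn2, a matricellular growth factor partner and a target of mechanical signalling, rose most, with intensities of 4310, 5078, 3476 and 4491 in osteoinductive medium, against 1188, 863, 964 and 1051 in growth medium (log2 difference 2.09, SE 0.11, limma adjusted p = 2.42e-07). Its groups were far apart in every condition. Cebpd, a C/EBP transcription factor with a role in fat and bone cell differentiation, rose by 1.19 (adjusted p = 6.12e-06 by limma), the clock gene Per1 by 0.64 (9.14e-04) and the phosphatase gene Dusp2 by 0.57 (6.98e-04).

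Ptgs2, the inducible cyclooxygenase of prostaglandin synthesis, fell most in osteoinductive medium, with intensities of 1752, 1855, 3682 and 2904, against 4760, 6384, 6527 and 5979 in growth medium. No osteoinductive array reached the lowest growth array (log2 difference -1.27, SE 0.13, limma adjusted p = 5.79e-05). The kinase gene Plk2 (-0.85, adjusted p = 6.98e-04 by limma) and the chemokine genes Ccl2 (-0.85, 0.0016) and Cxcl1 (-0.65, 3.24e-04) also fell.

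In flight, none of the 45 rose and 14 fell relative to the ground-based arrays, against 12.7% of all tested genes higher and 25.7% lower. The median was -0.15, against -0.088 over all tested genes. After quantile normalization 3 were higher (Dusp1, Sik1 and Klf2) and 9 lower, and Ptgs2 no longer passed (-0.38, limma adjusted p = 0.0538). Bhlhe40, a circadian and hypoxia-responsive repressor, had intensities of 377 and 369 in microgravity and on the centrifuge in osteoinductive medium, against 542 and 616 in ground units and laboratory dishes. In growth medium it had 312 and 386 in microgravity and on the centrifuge, against 509 and 567 in ground units and laboratory dishes. All flight arrays lay below all ground-based arrays (log2 difference -0.63, SE 0.090, limma adjusted p = 2.18e-04). Klf10, a TGF-beta inducible early factor known in osteoblasts, fell by 0.52 on the log2 scale (adjusted p = 7.02e-04 by limma), Ptgs2 by 0.52 (0.0142) and Maff, a small MAF protein, by 0.50 (0.00104). In microgravity minus centrifuge 36 of the 45 had a negative difference, as did 61.8% of all tested genes. The median of the 45 was -0.18, against -0.051 over all tested genes. None of the 45 passed, and no gene of the whole table did (0%).

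**Figure D4:**
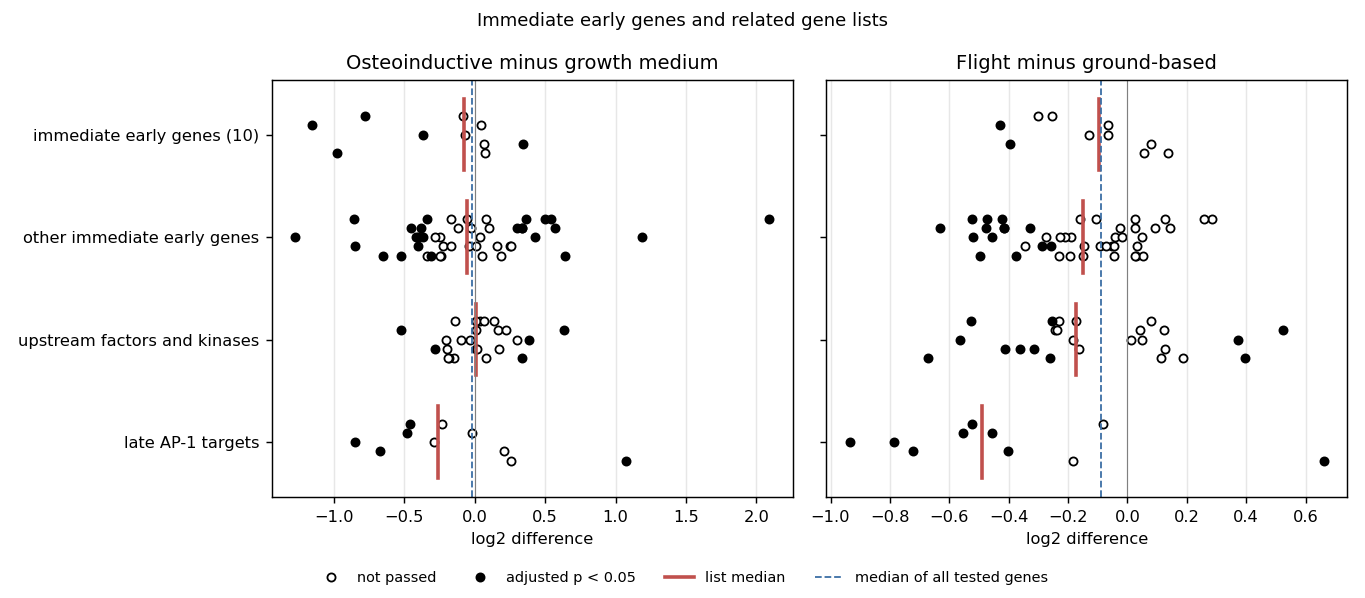
Log2 differences of single genes (points, filled where the adjusted p passed the threshold) in the 10 immediate early genes and 3 related lists, for osteoinductive minus growth medium and for flight minus ground-based arrays; red bars are list medians and the dashed line is the median of all tested genes. The late AP-1 targets have a median of -0.49 in flight minus ground-based, while the 10 immediate early genes, at -0.096, lie next to the median of all genes, at -0.088.

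Genes that act before the immediate early genes were followed in a list of upstream factors and kinases, 25 of which were measured, and all 25 passed the filter. In flight 3 rose and 8 fell, against 12.7% of all tested genes higher and 25.7% lower, and after quantile normalization 5 rose and 6 fell. Mapk8, which encodes the JUN kinase JNK1, had intensities of 431 and 380 in microgravity and on the centrifuge in osteoinductive medium, against 318 and 307 in ground units and laboratory dishes. In growth medium it had 668 and 626 in microgravity and on the centrifuge, against 422 and 390 in ground units and laboratory dishes. Mapk8 thus stood higher in flight within each medium (log2 difference 0.52, SE 0.089, limma adjusted p = 8.33e-04) and lower in osteoinductive medium within each condition (-0.53, SE 0.090, adjusted p = 0.00225). The kinase gene Rps6ka5 (0.40, adjusted p = 0.00673 by limma) and the receptor gene Egfr (0.37, 0.00269) rose in flight.

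Among the 8 that fell in flight were the receptor genes Met (-0.67, limma adjusted p = 0.00212) and Pdgfrb (-0.56, 0.00167), the ternary complex factor Elk4 (-0.53, 0.00439) and the kinase gene Mapkapk2 (-0.41, 0.0146). Pdgfrb is also in the list of stromal markers above, so its fall counts in both lists. In osteoinductive medium 3 of the 25 rose and 2 fell, against 6.42% of all tested genes higher and 8.13% lower. These counts were 4 and 2 after quantile normalization and 3 and 1 with an offset of 32 before log2. Fgfr1 (0.64, limma adjusted p = 0.00165), Egfr (0.38, 0.00915) and the p38 kinase gene Mapk14 (0.33, 0.0165) rose, and Mapk8 and the CREB family gene Crem (-0.28, 0.0471) fell.

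Of the late genes listed as targets of AP-1, 12 were measured and 10 passed the filter. In flight 1 rose and 7 fell, against 12.7% of all tested genes higher and 25.7% lower, with a median log2 difference of -0.49, against -0.088 over all tested genes. Hmox1, the haem-degrading stress enzyme, had intensities of 1003 and 1235 in microgravity and on the centrifuge in osteoinductive medium, against 3196 and 2770 in ground units and laboratory dishes. In growth medium it had 2429 and 3240 in microgravity and on the centrifuge, against 3975 and 3698 in ground units and laboratory dishes. It was lower in flight in both media (log2 difference -0.93, SE 0.17, limma adjusted p = 0.00151). The urokinase receptor gene Plaur (-0.79, adjusted p = 4.88e-04 by limma), the protease inhibitor gene Timp1 (-0.72, 0.00182) and the hyaluronan receptor gene Cd44 (-0.56, 0.00358) fell as well. Cd44 is also in the list of stromal markers above, so its fall counts in both lists.

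Mmp13, the collagenase of bone and cartilage and a textbook AP-1 target, was the late gene that rose. It had intensities of 335 and 367 in microgravity and on the centrifuge in osteoinductive medium, against 252 and 374 in ground units and laboratory dishes. In growth medium it had 234 and 226 in microgravity and on the centrifuge, against 113 and 97.8 in ground units and laboratory dishes. The separation lay in growth medium, while in osteoinductive medium the laboratory array was the highest (log2 difference of flight minus ground-based 0.66, SE 0.18, limma adjusted p = 0.0113). Mmp13 was also higher in osteoinductive than in growth medium in every condition (1.08, SE 0.18, adjusted p = 0.00162). There 4 late genes fell, against 8.13% of all tested genes: Hmox1 (-0.85, limma adjusted p = 0.00404), the cytokine gene Lif (-0.67, 9.35e-04), Cd44 (-0.48, 0.00891) and Mmp9 (-0.46, 0.00532).

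The genes whose pattern over the 8 arrays was most like that of Fos, by Pearson correlation of log2 intensity and given as a description, were Nudcd3 (r = 0.988), Insig2 (0.982), Nt5c2 (0.979), Pcmtd1 (0.976) and Slc35f5 (0.975). They were ranked among the 13205 tested genes less the 10 members, over 8 arrays that share 4 conditions and 2 media. The mean of the 10 centred log2 values was highest on the growth laboratory (0.29) and growth centrifuge (0.28) arrays and lowest on the osteoinductive microgravity array (-0.27). Nop56 (r = 0.989), Rtn4 (0.986), Gadd45a (0.986), Nsa2 (0.986) and Esf1 (0.983) were nearest to this mean. Gadd45a, a p53 and stress-induced gene, had intensities of 4035, 4186, 4340 and 4499 in osteoinductive medium, against 4130, 5228, 4879 and 5049 in growth medium, in the order microgravity, centrifuge, ground and laboratory.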

How the data were processed

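Total RNA (100 ng) from 8 bone marrow stromal cell samples was amplified and hybridised to single-colour arrays, 1 for each. The authors deposited linear intensities, with a value for every probe set. RMA and GCRMA are named, per the submitters' processing notes, without saying which was used, and no genome build is given. Of 35557 probe sets, 21789 named 1 gene, 1621 several and 12147 none, and 21698 of the first matched RefSeq GRCm38.p6, with 0 symbols updated. Genes were tested above the 40th percentile of mean log2 intensity.

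Log2 values were fitted with limma 3.58.1 in R 4.3.3 (lmFit and eBayes, two-sided, Benjamini-Hochberg within each of 7 comparisons over all 13205 tested genes, threshold 0.05). Differences between conditions and media used condition and medium (3 residual degrees of freedom), so their interaction served as error. Flight against ground-based used medium as a covariate (5 residual degrees of freedom), and the interaction of flight with medium had 4. In these the microgravity and centrifuge arrays, and the ground and laboratory arrays, counted as repeats. Fits were tested on simulated data.

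Beside the members, the 4 highest and 4 lowest called genes of each related list and the 5 genes most similar to each pattern are named. Genes named for passing under another setting, and those given by array, were picked after their values were seen. Members and lists were chosen with earlier results of these data known. Some genes of the related lists are not reported here. Alternatives were quantile normalization, an offset of 32, no filter, a filter at the 60th percentile and the mean of a gene's probe sets. Fits of the compared arrays alone and leaving out each array were also run. Leaving out the centrifuge arrays was added after seeing the data.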

Additional observations from a re-analysis of the deposited data

Results flagged for a closer look

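Differences were compared between media within 1 contrast, with 1 array on each side, so the difference between media was not tested. A pair was taken where the values had opposite signs and each was larger than 0.15, the larger SD over all tested genes of the log2 difference between ground units and laboratory dishes, a limit chosen after the values had been seen. Fos in microgravity minus centrifuge was 0.16 in osteoinductive medium and -0.40 in growth medium, a difference of 0.56. Atf3 in centrifuge minus ground was -0.28 in osteoinductive medium and 0.31 in growth medium, a difference of -0.59. No group has the 4 arrays needed to look for a single array far from its group.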

How the results depend on the processing

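No paired analysis by replicate number was possible because the labels carry no such numbers and each medium and condition has 1 array. The fits themselves already compare media within conditions and conditions within media. Over the alternatives run, 118 of 138 refits of the 10 called member differences kept direction and call, 20 lost the call and 0 reversed. Many of these refits could not have reversed a difference or were not separate. Each member has 1 probe set, so averaging probe sets kept its log2 difference, as did the changes of filter for members still tested. Leaving out either array of a condition gave the same difference between media, counted for each array. Of 835 refits of differences not called, 12 passed and 47 reversed. Precision is limited by the number of arrays, and the cause of each change below was not tested unless stated.

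After quantile normalization 4 members were called in flight minus ground-based and 1, Junb, in centrifuge minus ground. That scaling reversed Jun (0.035), Egr1 (0.11) and Egr2 (0.075) in flight minus ground-based, Jun (0.022), Egr2 (0.002413) and Nr4a1 (0.14) in microgravity minus ground, Ier2 in centrifuge minus ground (0.011) and in ground minus laboratory (0.014), and the interaction of Junb (-0.002609). The stricter filter left 1 member called in flight minus ground-based, since Junb was not tested, and 641 genes called in centrifuge minus ground. Fits of the 4 compared arrays alone called 49 genes in microgravity minus centrifuge and 9 in ground minus laboratory. Without the centrifuge arrays 6 members were called in flight minus ground-based, where Nr4a1 reversed to -0.038, 1115 genes were called between media and 38 in the interaction, where Junb reversed to -0.0005785.

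Leaving out each array in turn gave 2 to 4 called members in flight minus ground-based (4 without growth centrifuge). Microgravity minus centrifuge had 0 to 47 called genes (47 without growth microgravity, 25 without either laboratory array, 3 without osteoinductive microgravity). Microgravity minus ground had 1377 to 4695 called genes and 0 to 4 called members, with 1377 genes without growth microgravity, 1481 without osteoinductive ground and 1851 without growth ground. Centrifuge minus ground had 643 to 2087 genes and 0 to 1 members, with 2087 genes without growth centrifuge, 726 without osteoinductive centrifuge, 796 without growth ground and 643 without osteoinductive ground. Osteoinductive minus growth had 1115 to 1623 genes (1115 without either centrifuge array) and 3 to 5 members (3 without either laboratory array). The interaction had 0 to 15 genes, with 15 without growth microgravity or osteoinductive centrifuge and 5 without growth centrifuge.

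Some differences that were not called changed sign when 1 array was left out. In flight minus ground-based these were Fos (-0.002451 to 0.17), Egr1 (-0.15 to 0.030), Egr2 (-0.14 to 0.051) and Nr4a1 (-0.018 to 0.15). In microgravity minus centrifuge they were Fos (-0.34 to 0.097), Ier3 (-0.55 to 0.11) and Nr4a1 (-0.38 to 0.011), and in microgravity minus ground Fos (-0.076 to 0.36) and Nr4a1 (-0.24 to 0.15). In centrifuge minus ground they were Jun (-0.072 to 0.11), Ier2 (-0.18 to 0.070), Ier3 (-0.65 to 0.006236) and Atf3 (-0.25 to 0.28), and in ground minus laboratory Egr1 (-0.18 to 0.059), Ier3 (-0.20 to 0.21) and Nr4a1 (-0.056 to 0.087). In the interaction they were Fos (-0.099 to 0.30), Jun (-0.14 to 0.23), Junb (-0.077 to 0.091), Egr1 (-0.032 to 0.36), Egr2 (-0.061 to 0.42), Ier2 (-0.31 to 0.32), Atf3 (-0.58 to 0.049) and Nr4a1 (-0.092 to 0.33).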
